A study of Cricetulus griseus with 24 samples.

Results

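RNA of 2 Chinese hamster ovary (CHO) cell lines at stationary phase was compared gene by gene. A1 is the amplified progeny of an antibody-producing line derived from CHO DG44. It carries plasmids with immunoglobulin G (IgG) heavy and light chain genes and a neomycin resistance gene, and it was selected in methotrexate. CHO-S is a separate CHO lineage, for which the labels give no antibody gene and no treatment. Its libraries carry the name NDST in their titles, and no source used here says what that stands for. The comparison used the 3 A1 and the 3 CHO-S stationary libraries among the 24 libraries of the series. Levels in A0, the line from which A1 was amplified (4 stationary libraries), and in the 3 exponential libraries of each of A1 and CHO-S are given beside them. The study describes triplicate suspension cultures in shaken flasks for its lines but does not name CHO-S there, so line and culture conditions cannot be told apart. A1 is 1 amplified cell line, and no label ties the libraries of CHO-S to separate cultures. The p-values therefore measure the spread between these libraries, which may be technical.

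CHO cells are an immortal hamster line and the common host for antibody production. Methotrexate is an antifolate, and selection in rising doses of it is used to obtain cells that carry more copies of the antibody genes. At stationary phase a culture has stopped expanding, nutrients run down and byproducts build up.

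The A1 libraries held 6532373, 12140773 and 11350552 gene counts. CHO-S library 2 held 14290792 and CHO-S library 3 held 7516854. CHO-S library 1 was shallow, with 1038026 gene counts, and 32.8% of its reads lay outside genes against 18.1% to 18.2% in the other CHO-S libraries and 15.4% to 16% in A1. It stood apart by more than its depth. Among the 4742 genes at 50 CPM or more in CHO-S (CPM are gene counts scaled to a common library size), 24% differed by over 2-fold between library 1 and the mean of the other CHO-S libraries, and 0 did between those 2. List counts are therefore given with library 1 and without it, as are the values of some genes that it moved. The A0 libraries, used as levels only, also fell into pairs. Libraries 1 and 2 differed with a chi-square of 3.74 for each degree of freedom, 3 and 4 with 2.77, and libraries of different pairs with 15.7 to 19.2. The part of this in the A0 levels was not tested. The share of reads not aligned was 10.3% to 11.5% in A1 and 2.35% to 3.06% in CHO-S. The part of this difference in the results was not tested. All 8 CHO markers looked for (Vim, Actb, Actg1, Tuba1b, Eef1a1, Fut8, Anxa1 and Lgals1) were present in both lines, with a summed level of 8899 to 10015 CPM in A1 and 5406 to 11152 CPM in CHO-S. The blood, endothelial and epithelial marker lists summed to at most 1.49, 5.39 and 3.88 CPM in an A1 library and to at most 0.726, 13.4 and 0.218 CPM in a CHO-S library. The neuron and muscle markers summed to 16 to 18.8 CPM in A1 and to 11.4 to 14 CPM in CHO-S, most of it Acta1. Kdr, Tie1, Krt14, Snap25 and Myog had no count in any of these 6 libraries.

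Of 18243 genes tested, 6345 (34.8%) differed between the lines at an adjusted p under 0.05 (the quasi-likelihood test of edgeR, adjusted by Benjamini-Hochberg). In A1, 3318 genes (18.2%) were higher and 3027 (16.6%) were lower, so 52.3% of the calls were higher. With library sizes alone in place of TMM scaling, 63.3% were higher, and the median log2 difference of all genes went from 0.06 to 0.22. A difference of at least 2-fold was called for 4042 genes (22.2%), 2090 (11.5%) higher and 1952 (10.7%) lower. Of the 11029 genes at 5 CPM or more in the higher line, 4737 (43%) were called. The A1 and CHO-S libraries did not overlap for 8897 genes (48.8%). RNA was pooled over each culture, so fewer cells with a transcript and less of it per cell cannot be told apart.

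Without CHO-S library 1, 10451 of 18204 genes (57.4%) were called, 5439 (29.9%) higher and 5012 (27.5%) lower in A1. Of the 6345 calls, 6340 were called again in the same direction, 0 in the opposite direction, and 5 were not called. The calls gained had a median absolute log2 difference of 0.42, against 1.24 for the calls made both ways. At least 2-fold calls numbered 4410 (24.2%). Large differences were thus largely shared between the fits, and the small ones were called mainly without library 1. Leaving out A1 library 2, A1 library 3 or CHO-S library 2 instead gave 4054, 4098 and 4051 calls. The biological coefficient of variation was 0.194 with library 1 and 0.055 without it.

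**Figure D1:**
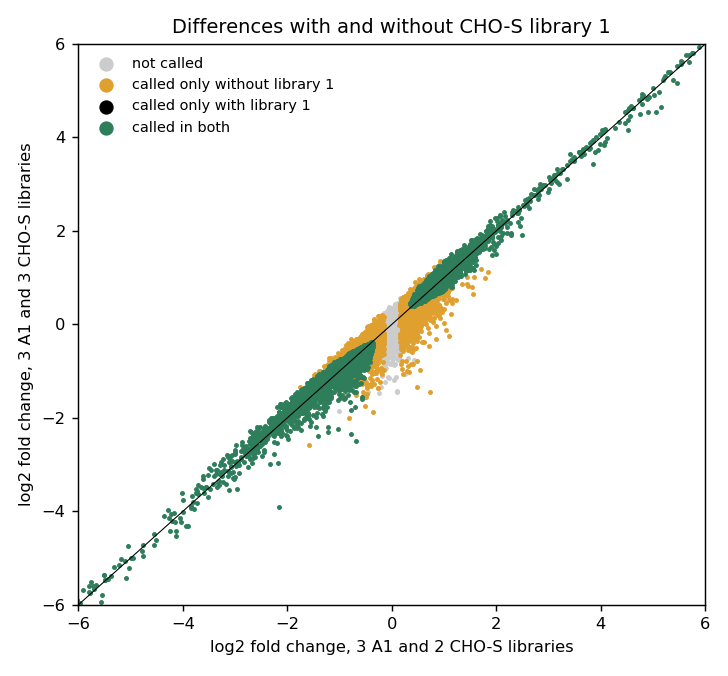
Log2 fold change of A1 over CHO-S from 3 A1 and 3 CHO-S libraries (vertical axis) against that from 3 A1 and 2 CHO-S libraries, without CHO-S library 1 (horizontal axis). Each of the 10826 points is a gene at 5 CPM or more in either line (203 genes lie beyond the axes), coloured by which fit called it, with the line of equality. Points called only without library 1 lie near 0, and those far from 0 were called in both fits.

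Several genes that lie close together in the reference order had no count in A1 at stationary phase. Msh3, a DNA mismatch repair gene, had no count in any A1 library and 32.3, 43.1 and 42.4 CPM in CHO-S. Zfyve16, which encodes an endosomal protein, had no count in A1 and 110, 84.8 and 81.8 CPM in CHO-S. Fam151b, which lies beside Zfyve16 among the genes with counts, had no count in A1 and a mean of 12.7 CPM in CHO-S. Against the limit that no count allows (3 counts over the 3 A1 libraries together), Msh3 was at least 414-fold and Zfyve16 at least 973-fold higher in CHO-S. The adjusted p-values from edgeR were 1.0e-05 for Msh3, 9.5e-06 for Zfyve16 and 3.0e-05 for Fam151b. The A0 libraries had no count of these 3 genes either. Over the 3 exponential A1 libraries, Msh3 had 8 counts, Fam151b 2 and Zfyve16 15. Those of Msh3 and Zfyve16 all lay in A1 exponential library 1, at 0.651 and 1.22 CPM. That library stood apart, as described with the interactions below.

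Genes farther out on either side were present in A1. Zcchc9, on the Msh3 side, had 18.9 CPM in A1 and 37.4 CPM in CHO-S, a log2 fold change of -0.92 (SE 0.21, adjusted p = 0.010 from edgeR). Serinc5, on the Zfyve16 side, had 30.1 and 57.7 CPM, a log2 fold change of -1.0 (SE 0.17, adjusted p = 0.0023). Mtx3, farther on that side, had a log2 fold change of -1.31 (SE 0.19, adjusted p = 0.0013). These 3 were lower in A1. Rps23, Atg10 and Ssbp2, farther out beyond Zcchc9, were not called, with log2 fold changes of 0.13, -0.34 and 0.46, although without CHO-S library 1 Rps23 and Atg10 were called lower in A1, at -0.22 and -0.48.

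Genes that the reference table lists as immunoglobulin or T cell receptor segments were examined after their values were seen. The count table holds 119 of them, of which 17 were tested, 8 rose and 1 fell. In CHO-S, 118 of the 119 had no count. Such genes were tested only through their A1 counts and could only rise, so these counts show no direction. At 5 CPM or more in A1 there were 2. The summed level of the segments was 1002, 967 and 1035 CPM in A1, 3.12, 3.41 and 4.59 CPM in CHO-S and 238 to 376 CPM in the A0 libraries. Nearly all of it in A1 was LOC103164411, a variable (V) segment, with 979, 941 and 1005 CPM in A1, no count in CHO-S and 286 ± 70.9 CPM (SD, n = 4) in A0. This segment was at least 7199-fold higher in A1 than in CHO-S (adjusted p = 2.0e-06 from edgeR). LOC103161202, a constant region, had 10.8, 12.6 and 17 CPM in A1 and no count in CHO-S. The plasmids of A1 and A0 hold antibody genes, and whether these reads came from them was not tested.

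Many genes were read in 1 line and not in the other. In A1, 72 called genes were at 5 CPM or more with no count in any CHO-S library, and 25 of them have a symbol. In CHO-S, 41 called genes were at 5 CPM or more with no count in any A1 library, and 33 of them have a symbol. A0 resembled A1 in most of them. Of the 72, 56 were at 5 CPM or more in A0 and 8 were under 1 CPM. Of the 41, 25 had no count in A0, 40 were under 1 CPM, and 1, LOC103163470, was at 6.57 CPM.

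Among the 15 largest rises in A1 were transcription factors, a cell adhesion molecule and metabolic genes. Nfib, a nuclear factor I transcription factor, had 47.8, 48.5 and 52.7 CPM in A1 and no count in CHO-S, at least 367-fold higher. Creb5, a member of the CREB and ATF family of bZIP factors, had 41.5, 37.4 and 47.3 CPM in A1 and no count in CHO-S, at least 310-fold higher. Cdh2, which encodes N-cadherin, had 39.6, 30.5 and 35.3 CPM in A1 and no count in CHO-S, at least 259-fold higher. These 3 were at 32.9, 53.3 and 43.4 CPM in A0. Dgat2, an enzyme of triglyceride synthesis, was at 32.8 CPM in A1, and Hes2, a helix-loop-helix repressor, at 28.9 CPM. Slc9a9, an endosomal sodium and proton exchanger, was the most abundant of the 15 in A1, at 101, 91.5 and 93.0 CPM, and had 1 count in CHO-S library 2. Pipox, Zfpm2, Slc2a9, Trib2, Csmd3, Dpy19l2, Calcrl and Pdpn had 11.8 to 21.4 CPM in A1 and no count in CHO-S. Calcrl, a receptor of the calcitonin family, stood apart in A0, where it was at 0.163 CPM against 12.1 CPM in A1. The other rises were at 5.45 CPM or more in A0. The adjusted p-values of the 15 lay between 1.6e-06 and 8.0e-05 (edgeR).

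Among the 15 largest falls in A1, 14 had no count in the A1 libraries. Maged1, a member of the MAGE family, had 122, 241 and 229 CPM in CHO-S, at least 2081-fold higher than in A1. Vstm4 had 61.4, 98.2 and 101 CPM in CHO-S, at least 916-fold higher. Bicc1, an RNA-binding protein, had 68.7, 61.6 and 69.4 CPM, at least 702-fold higher. Irs2, an adaptor of the insulin receptor, had 30.2, 56.3 and 54.6 CPM, at least 496-fold higher. All 4 were also without a count in A0. Stard4, a sterol carrier, Morn4, Cd82, a tetraspanin, Epb41, a membrane skeleton protein, and Znf365 had means between 20.6 and 37.0 CPM in CHO-S. The remaining falls were Zfyve16 and Msh3, given above, Hoxa7, Hoxa9 and Hoxa10, and Col4a1. The adjusted p-values of the 15 lay between 7.8e-07 and 1.1e-04 (edgeR).

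**Figure D2:**
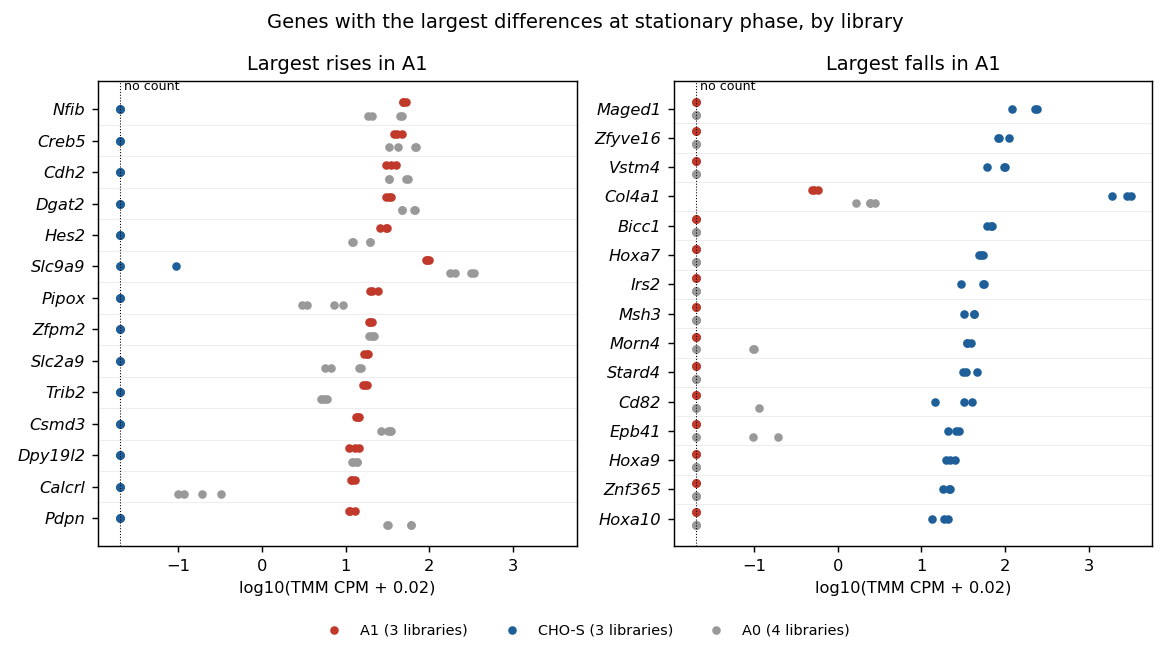
Levels of the largest rises (left) and the largest falls (right) in A1 against CHO-S, as log10(TMM-normalized CPM + 0.02), 1 point for each stationary library of A1, CHO-S and A0. The dotted line marks no count. A0 points lie far below those of CHO-S for all falls, and above all those of CHO-S for all rises, lowest for Calcrl.

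Col4a1 and Col4a2 encode the main chains of basement membrane collagen IV and lie head to head. Col4a1 was, after Fn1, the most abundant gene of the matrix list in CHO-S, with 1898, 3191 and 2910 CPM, and had 0.568, 0.471 and 0.506 CPM in A1, a log2 fold change of -12.35 (SE 0.33, adjusted p = 7.8e-07 from edgeR). Col4a2 had 219, 623 and 593 CPM in CHO-S and 0.568, 0.471 and 0.0844 CPM in A1, a log2 fold change of -10.39 (SE 0.64, adjusted p = 1.6e-05). In the reference order Fbxw7 follows Col4a1 and Irs2 follows Fbxw7. Fbxw7, a subunit of a ubiquitin ligase, was present in both lines. It had 36.5, 35.2 and 38.1 CPM in A1 and 136, 55.6 and 54.6 CPM in CHO-S, highest in CHO-S library 1. Its log2 fold change with all 6 libraries was -1.11 (SE 0.34, adjusted p = 0.034). The low levels at this place thus skipped a gene.

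The HOXA genes, homeobox factors that set position along the body axis, formed the longest run. The 9 HOXA genes tested had no count in any A1 or A0 library. They were tested only through their CHO-S counts, so a fall was the only direction open to them. All 9 were called, and 4 were at 5 CPM or more in CHO-S. Hoxa7 had 55.2, 49.1 and 51.0 CPM in CHO-S, at least 546-fold higher than in A1. Hoxa9 had 25, 22.3 and 19.4 CPM, at least 234-fold higher, and Hoxa10 had 13.5, 18.7 and 21 CPM, at least 187-fold higher. The genes flanking the run, Hibadh and Cbx3, were read in both lines and were not called (log2 fold changes 0.19 and -0.64), but without CHO-S library 1 Cbx3 was, at -0.28. The 6 HOXC genes tested also fell in A1, but with counts in A1. Hoxc8 went from 44.1 ± 14.3 CPM in CHO-S to 1.89 ± 0.519 CPM in A1 (SD, n = 3 each), a log2 fold change of -4.41 (SE 0.28, adjusted p = 1.8e-05 from edgeR). Of the HOXD genes, 3 of 5 rose and 0 fell, among them Hoxd9 (LOC100758825 in the counts), with 29.1, 33.0 and 36.0 CPM in A1 and 10.4, 19.5 and 15.5 CPM in CHO-S (log2 fold change 0.96, SE 0.19, adjusted p = 0.0060). Of the 6 HOXB genes tested, 2 fell and 4 (Hoxb4, Hoxb5, Hoxb6 and Hoxb7) were not called. Pbx3, a HOX cofactor, rose with a log2 fold change of 0.86. Of 38 homeobox genes tested, 4 rose and 21 fell (4 and 25 without library 1), with a median log2 fold change of -1.16 against 0.06 over all genes. These include the 9 HOXA genes, which could only fall.

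Runs of adjacent genes were then counted over the whole reference order. Of the 11029 genes at 5 CPM or more in either line, 10561 (95.8%) have a place in it. There were 98 placed genes called and at least 32-fold lower in A1, of which 17 lay in 7 runs of adjacent genes, and the longest, at HOXA, held 5 genes at that level. In the other direction, 110 placed genes were at least 32-fold lower in CHO-S, of which 22 lay in 10 runs of at most 3 genes. Nppa and Nppb, the natriuretic peptide genes, formed a run that was lower in A1, with means of 0.0996 and 5.53 CPM in A1 and 6.26 and 244 CPM in CHO-S. In A0 they were at 7.05 and 8.84 CPM, so A0 did not share the low level of Nppa. Rtkn2 and Znf365, and Ppm1k and Herc6, formed others. Pdpn, which encodes podoplanin, lay in a run of 3 with 2 unnamed genes that was without a count in CHO-S. No share that chance would give was computed for these runs.

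The members of 25 gene lists that rose or fell were then counted, beside the same over all genes tested. The shares over all genes were 18.2% higher and 16.6% lower in A1.

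**Figure D3:**
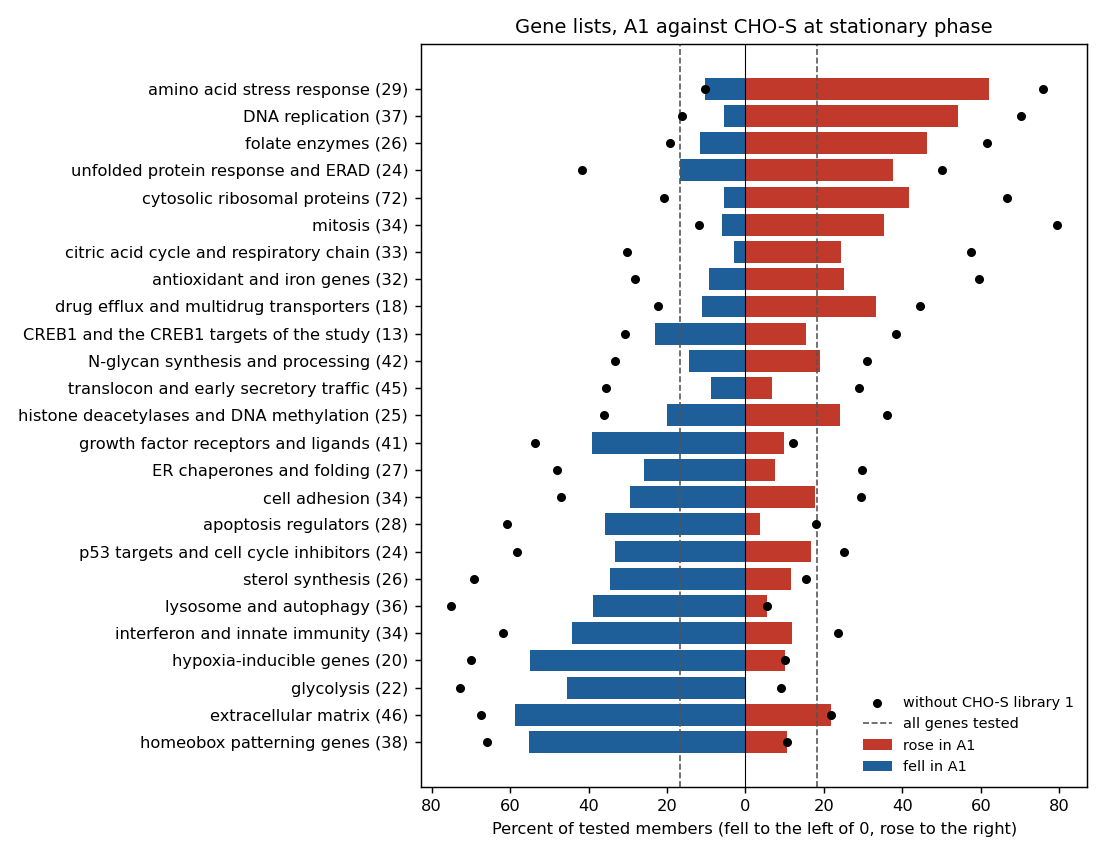
Percent of the tested members of each gene list (number in parentheses) that rose (right of 0) or fell (left of 0) in A1 against CHO-S at stationary phase. Bars use all 6 libraries, black points leave out CHO-S library 1, and dashed lines mark the 18.2% that rose and the 16.6% that fell over all genes. Lists are ordered by median log2 fold change, from amino acid stress genes at the top to homeobox genes at the bottom.

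More genes of the amino acid stress response rose than fell in A1. This response, driven by the factor ATF4, raises amino acid synthesis and uptake when amino acids run short. Of 29 genes tested, 18 rose and 3 fell (22 and 3 without library 1), with a median log2 fold change of 0.92. Atf4 itself had 684 ± 30.2 CPM in A1 and 231 ± 21.5 CPM in CHO-S (SD, n = 3 each), a log2 fold change of 1.54 (SE 0.14, adjusted p = 1.2e-04 from edgeR). Atf5, a related stress factor, had 746, 897 and 784 CPM in A1 and 70.8, 46.2 and 47.2 CPM in CHO-S, a log2 fold change of 3.89 (SE 0.21, adjusted p = 9.2e-06). It was at 368 CPM in A0. Chac1, which breaks down glutathione, had 17.2, 11.4 and 12.9 CPM in A1 and 0, 2.47 and 2.83 CPM in CHO-S, a log2 fold change of 2.44 (SE 0.31, adjusted p = 5.6e-04). Trib3, Slc1a5, Slc7a5 and Psat1 rose with log2 fold changes of 2.41, 2.27, 1.83 and 1.93. Among the falls were Wars, a tryptophan tRNA synthetase (-0.49), and Cth, which had no count in A1 and 0.142 CPM in CHO-S.

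More genes of the folate list rose than fell in A1, and 11 were not called. Of 26 genes on the list of folate metabolism, which also holds Msh3, 12 rose and 3 fell (16 and 5 without library 1), with a median log2 fold change of 0.55. Mthfd2, the mitochondrial folate enzyme, had 384, 356 and 391 CPM in A1 and 78.0, 117 and 126 CPM in CHO-S, a log2 fold change of 1.77 (SE 0.20, adjusted p = 3.0e-04 from edgeR). Mthfd1, its cytosolic relative, rose by 1.65 on the log2 scale, and Atic, of purine synthesis, by 1.59. Msh3, described above, and Folr1, at 0.0281 CPM in A1 and 0.398 CPM in CHO-S, were among the falls.

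With all 6 libraries, the glycolysis genes that were called were lower in A1. Of 22 tested, 0 rose, 10 fell and 12 were not called (2 rose and 16 fell without library 1), with a median log2 fold change of -0.85. Gapdh, often used as a reference gene, had 2260, 2448 and 2365 CPM in A1 and 7385, 10348 and 8206 CPM in CHO-S, a log2 fold change of -1.90 (SE 0.15, adjusted p = 4.8e-05 from edgeR). Ldha, which makes lactate, had 731, 805 and 775 CPM in A1 and 2434, 2897 and 2644 CPM in CHO-S, a log2 fold change of -1.82 (SE 0.13, adjusted p = 3.0e-05). Every A1 library lay below every CHO-S library for both. Hk1, Pgam1, Tpi1 and Pgk1 also fell, with log2 fold changes from -1.77 to -1.23. Of 33 genes of the citric acid cycle and respiratory chain, 8 rose, 1 fell and 24 were not called. With CHO-S library 1, 27.3% were called, against 34.8% of all genes and 43% of genes at 5 CPM or more, as all 33 were. Without it, 19 rose and 10 fell, 87.9% called against 57.4% and 74.9%. The share of this list was thus below that of all genes in 1 fit and above it in the other. Pdhb, of pyruvate dehydrogenase, rose by 1.14 on the log2 scale and Ndufv2, of complex I, by 0.88, and Ndufa9, also of complex I, had a log2 fold change of -0.64.

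More hypoxia-inducible genes fell than rose in A1. Of 20 tested, 2 rose and 11 fell (2 and 14 without library 1), and the median log2 fold change was -0.72. Bnip3, which marks mitochondria for removal, had 52.4, 52.8 and 56.0 CPM in A1 and 369, 328 and 271 CPM in CHO-S, a log2 fold change of -2.61 (SE 0.17, adjusted p = 2.0e-05 from edgeR). Adm, the adrenomedullin gene, and Ca9, a carbonic anhydrase, were the rises, at 1.62 and 0.77 on the log2 scale.

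The secretory pathway, which carries the antibody in A1, showed mixed differences. Of 27 endoplasmic reticulum chaperones and folding enzymes, 2 rose and 7 fell (8 and 13 without library 1), with a median log2 fold change of -0.24. The share called was 33.3%, against 34.8% of all genes and 43% of genes at 5 CPM or more, as all 27 were. Without library 1 it was 77.8%, against 57.4% and 74.9%. With library sizes alone, 6 rose and 5 fell. Hspa5, the main lumenal chaperone BiP, had 7373, 7574 and 8691 CPM in A1 and 5472, 6262 and 5379 CPM in CHO-S, a log2 fold change of 0.44 (SE 0.12, adjusted p = 0.022 from edgeR), and 16316 CPM in A0. Fkbp2, a prolyl isomerase, rose by 1.14 on the log2 scale. Sil1, the exchange factor of BiP, fell from 89.5, 69.4 and 55.3 CPM in CHO-S to 13.9, 16.5 and 20.3 CPM in A1, a log2 fold change of -2.06 (SE 0.23, adjusted p = 2.9e-04). Ero1a, an oxidase of disulfide formation, had a log2 fold change of -1.57.

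Among 24 genes of the unfolded protein response and of endoplasmic reticulum degradation, 9 rose and 4 fell (12 and 10 without library 1). Sel1l and Syvn1, which together form the HRD1 ubiquitin ligase complex, rose by 1.44 and 1.16 on the log2 scale, and Wfs1 and Creb3l1 fell with log2 fold changes of -1.15 and -0.58. Of 45 genes of the translocon and early traffic, 3 rose and 4 fell, 15.6% called against 34.8% of all genes. Without library 1, 13 rose and 16 fell, 64.4% called against 57.4% of all genes. All 45 were at 5 CPM or more in the higher line. Of all genes at that level, 43% were called with library 1 and 74.9% without it. The share of this list was below that in both fits. With library sizes alone, 8 rose and 1 fell. Srp68, of the signal recognition particle, had 488, 469 and 465 CPM in A1 and 181, 203 and 191 CPM in CHO-S, a log2 fold change of 1.28 (SE 0.13, adjusted p = 2.3e-04 from edgeR). Ssr4 rose by 1.05, and Lman1 and Sec24b had log2 fold changes of -1.14 and -0.67 (-0.81 for Lman1 without library 1). Of 42 N-glycan genes, 8 rose and 6 fell, 33.3% called, and without library 1 13 rose and 14 fell, 64.3% called. These shares were near the 34.8% and 57.4% of all genes and below the 43% and 74.9% of genes at 5 CPM or more. Dpagt1, the enzyme that starts the lipid-linked glycan, and Alg6, a glucosyltransferase, rose by 1.55 and 1.25 on the log2 scale. Mgat4b and Man2a2, which act in the Golgi, had log2 fold changes of -1.49 and -1.10. All 4 were lowest in CHO-S library 1 among the CHO-S libraries. Without it the values were 1.25 for Dpagt1, 1.16 for Alg6, -1.77 for Mgat4b and -1.29 for Man2a2.

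More genes of DNA replication rose than fell in A1 against CHO-S at this phase. Of 37 tested, 20 rose and 2 fell (26 and 6 without library 1), with a median log2 fold change of 0.57. Fen1, the flap endonuclease, had 58.3, 71.9 and 61.7 CPM in A1 and 17.7, 21.5 and 22.7 CPM in CHO-S, a log2 fold change of 1.56 (SE 0.17, adjusted p = 2.6e-04 from edgeR). Orc1, of the origin recognition complex, rose by 1.39. Rrm2, a subunit of ribonucleotide reductase, and Lig1, a DNA ligase, were the falls, with log2 fold changes of -0.99 and -0.45. Of 34 mitosis genes, 12 rose and 2 fell (27 and 4 without library 1). The shares called were 41.2% and 91.2%, against 43% and 74.9% of genes at 5 CPM or more, as all 34 were. Mybl2, a cell cycle transcription factor, rose by 1.17 and Nuf2, of the kinetochore, by 1.13. Cenpf and Top2a fell with log2 fold changes of -1.28 and -0.70, and both were highest in CHO-S library 1, at 447 CPM against 227 and 220 CPM for Cenpf and at 1081 CPM against 659 and 667 CPM for Top2a. Without it the values were -0.90 and -0.44. Of 72 cytosolic ribosomal protein genes, 30 rose and 4 fell (48 and 15 without library 1), with a median log2 fold change of 0.44. Rps19 and Rps15 led the rises at 1.54 and 1.52 on the log2 scale, and both were lowest in CHO-S library 1, without which the values were 1.26 and 1.13. Rpl22 and Rpl35a fell, with log2 fold changes of -0.91 and -0.55. Many ribosomal protein genes have near-identical copies, and reads that align to more than 1 place were not counted.

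More genes of cell death and of p53 fell than rose in A1. Of 28 apoptosis regulators, 1 rose, 10 fell and 17 were not called (5 rose and 17 fell without library 1). The share called was 39.3%, against 34.8% of all genes and 43% of genes at 5 CPM or more. Without library 1 it was 78.6%, against 57.4% and 74.9%, so it was near these shares in both fits. The rise was Casp8, an initiator caspase, with a log2 fold change of 1.04. Casp1, the caspase of the inflammasome, had 1.99, 1.65 and 1.69 CPM in A1 and 27.1, 24.6 and 22.5 CPM in CHO-S, a log2 fold change of -3.81 (SE 0.17, adjusted p = 4.0e-06 from edgeR). The survival factor Mcl1 fell too, from 537 ± 81.4 CPM in CHO-S to 115 ± 12.4 CPM in A1 (SD, n = 3 each), a log2 fold change of -2.25 (SE 0.17, adjusted p = 4.9e-05). The list therefore holds falls of genes that favour death and of genes that oppose it. Of 24 p53 targets and cell cycle inhibitors, 4 rose, 8 fell and 12 were not called (6 rose and 14 fell without library 1). Plk2, a kinase, had 354, 222 and 287 CPM in A1 and 51.0, 57.8 and 47.5 CPM in CHO-S, a log2 fold change of 2.43 (SE 0.21, adjusted p = 8.6e-05). Tp53inp1 rose by 1.70. Fas, the death receptor, fell with a log2 fold change of -2.68, and Btg2, an antiproliferative gene, with -1.94.

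With all 6 libraries, extracellular matrix genes had the highest share of calls of the gene lists examined. Of 46 tested, 10 rose and 27 fell (10 and 31 without library 1), 80.4% called against 34.8% of all genes, with a median log2 fold change of -1.04. Without library 1 the share was 89.1%, below the 91.7% of the unfolded protein response and the 91.2% of mitosis. Collagen IV is given above. Col6a1, a collagen VI chain, went from 1703 CPM in CHO-S to 156 CPM in A1 (log2 fold change -3.48, SE 0.22, adjusted p = 1.7e-05 from edgeR), and Timp1, an inhibitor of metalloproteinases, from 1681 to 149 CPM (log2 fold change -3.52, SE 0.24, adjusted p = 2.7e-05). Some matrix genes rose. Thbs1, which encodes thrombospondin 1, went from 82.8 ± 4.92 CPM in CHO-S to 805 ± 123 CPM in A1 (SD, n = 3 each), a log2 fold change of 3.25 (SE 0.17, adjusted p = 7.5e-06). Lum, the proteoglycan lumican, had 3.41, 5.73 and 7.34 CPM in A1, 3 counts in CHO-S and no count in A0. Its ratio to CHO-S was 40.6, with a 95% counting interval of 13.9 to 197. Nid2, a basement membrane protein, had 6.10, 6.20 and 5.99 CPM in A1 and 0, 0.363 and 0 CPM in CHO-S.

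More adhesion genes and growth factor receptors also fell than rose. Of 34 adhesion genes, 6 rose and 10 fell (10 and 16 without library 1). Itga5, the fibronectin receptor chain, had 122, 115 and 118 CPM in A1 and 453, 1059 and 925 CPM in CHO-S, a log2 fold change of -2.81 (SE 0.30, adjusted p = 2.4e-04 from edgeR). Itgb5 fell with a log2 fold change of -1.58. Itga8, another integrin chain, had 6.81, 4.95 and 5.23 CPM in A1 and 1 count in CHO-S. Of 41 growth factors and receptors, 4 rose and 16 fell (5 and 22 without library 1). Pdgfrb, a receptor of platelet-derived growth factor, had 25.8, 31.9 and 30.4 CPM in A1 and 83.2, 280 and 264 CPM in CHO-S, a log2 fold change of -2.88 (SE 0.40, adjusted p = 9.9e-04). Fgfr1 and Ddr2 rose, with log2 fold changes of 1.45 and 0.69.

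More interferon and innate immunity genes fell than rose in A1. Of 34 tested, 4 rose, 15 fell and 15 were not called (8 rose and 21 fell without library 1), with a median log2 fold change of -0.53. Isg15, a ubiquitin-like modifier, had 3.97, 4 and 4.05 CPM in A1 and 132, 235 and 238 CPM in CHO-S, a log2 fold change of -5.69 (SE 0.28, adjusted p = 5.8e-06 from edgeR). Ifit2, which binds foreign RNA, had 0.852, 0.549 and 0.0844 CPM in A1 and 41.6, 32.6 and 33.6 CPM in CHO-S, a log2 fold change of -6.26 (SE 0.35, adjusted p = 9.2e-06). Tlr3, Irf7 and Mx1 fell with log2 fold changes of -4.96, -3.56 and -2.06. In contrast, Ifih1, which encodes the double-stranded RNA sensor MDA5, had 20.3, 21 and 20.9 CPM in A1 and 1 count over the CHO-S libraries. Eif2ak2 (LOC100757909 in the counts), which encodes the double-stranded RNA kinase PKR, had 11.6, 11.1 and 11.3 CPM in A1 and no count in CHO-S, at least 83.7-fold higher (adjusted p = 4.8e-05). A0 had 22.3 CPM of Ifih1 and 9.47 CPM of Eif2ak2.

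More of the sterol and lysosomal genes called fell than rose in A1. Of 26 sterol genes, 3 rose and 9 fell (4 and 18 without library 1). Insig1, which retains the sterol sensor in the endoplasmic reticulum, had 143, 123 and 147 CPM in A1 and 642, 385 and 361 CPM in CHO-S, a log2 fold change of -1.77 (SE 0.24, adjusted p = 8.0e-04 from edgeR). Stard4 had no count in A1. Scap and Srebf1, the escort and factor that switch the pathway on, rose by 0.78 and 0.68 (0.52 for Scap without library 1). Of 36 genes of lysosome and autophagy, 2 rose and 14 fell (2 and 27 without library 1). The shares called were 44.4% and 80.6%, against 43% and 74.9% of genes at 5 CPM or more, as all 36 were. Ctsk, a lysosomal protease, had a log2 fold change of -1.40, and Gabarap and Npc1 rose by 0.76 and 0.72.

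The remaining lists were mixed. Of 32 antioxidant and iron genes, 8 rose and 3 fell (19 and 9 without library 1). The share called was 34.4%, near the 34.8% of all genes and below the 43% of genes at 5 CPM or more. Without library 1 it was 87.5%, against 57.4% and 74.9%. Mt1, a metallothionein, had 8.52, 9.18 and 7.76 CPM in A1 and 0, 1.31 and 1.48 CPM in CHO-S. Slc40a1, the iron exporter, rose by 1.64 on the log2 scale. Gpx4, which repairs oxidized lipids, had 328, 369 and 386 CPM in A1 and 1283, 1350 and 1341 CPM in CHO-S, a log2 fold change of -1.90 (SE 0.13, adjusted p = 2.9e-05 from edgeR). Of 18 efflux transporters, 6 rose and 2 fell (8 and 4 without library 1). The shares called, 44.4% and 66.7%, were near or below those of genes at 5 CPM or more. Abcc1, which exports drug conjugates, had 260, 223 and 244 CPM in A1 and 73.9, 93.2 and 90.9 CPM in CHO-S, a log2 fold change of 1.45 (SE 0.16, adjusted p = 2.8e-04). Abcb6 rose by 2.21, and Abca7 and Abcb1b had log2 fold changes of -1.49 and -0.74. Of 25 genes of histone deacetylation and DNA methylation, 6 rose and 5 fell (9 and 9 without library 1). Their shares called, 44% and 72%, were likewise near those of genes at 5 CPM or more. Sirt7 and Sirt5 rose by 0.94 and 0.83, and Mbd2, which binds methylated DNA, and Hdac5 had log2 fold changes of -1.61 and -1.50.

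The study asked about CREB1, a factor that binds cAMP response elements, and genes it lists as targets. These were chosen from A0 and A1 samples of the series and are not independent evidence of a direction here. Creb1 had 85.5, 85.1 and 77.7 CPM in A1 and 113, 55.5 and 56.4 CPM in CHO-S, a log2 fold change of 0.17 (SE 0.27, adjusted p = 0.66 from edgeR). CHO-S library 1 lay above A1 and the other CHO-S libraries below it. Without library 1 the log2 fold change was 0.52 (adjusted p = 2.2e-08), past the threshold. Ndc80, of the kinetochore, behaved alike, with 128, 107 and 107 CPM in A1 and 152, 60.5 and 62.6 CPM in CHO-S, and log2 fold changes of 0.35 (SE 0.34, adjusted p = 0.46) with and 0.84 (adjusted p = 3.1e-16) without library 1. Jun rose, with 97.4, 89.5 and 121 CPM in A1 and 64.5, 50.8 and 41.0 CPM in CHO-S (log2 fold change 0.99, SE 0.21, adjusted p = 0.0074). Hmox1, the heme oxygenase gene, fell, with 1058, 1179 and 1192 CPM in A1 and 1514, 2859 and 2740 CPM in CHO-S (log2 fold change -1.08, SE 0.23, adjusted p = 0.0076). Without A1 library 1 it was not called, at -1.03 (adjusted p = 0.055). Etv3 fell with a log2 fold change of -0.82 (SE 0.14, adjusted p = 0.0022). Xpc and Nolc1 were not called, at 0.15 (SE 0.15, adjusted p = 0.46) and 0.05 (SE 0.15, adjusted p = 0.83), and without library 1 at 0.07 (adjusted p = 0.51) and 0.14 (adjusted p = 0.058). Of the coactivators of CREB1, Crtc3 rose by 0.49 and Crtc2 had a log2 fold change of -0.88. Over the list of 13 genes, 2 rose and 3 fell, and 5 rose and 4 fell without library 1. The shares called were 38.5% and 69.2%, against 43% and 74.9% of genes at 5 CPM or more, as all 13 were.

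Whether a difference between the lines was particular to stationary phase was tested with the interaction of line and phase over 12 libraries. Of 19662 genes, 1495 (7.6%) had an interaction past the threshold, 754 (3.83%) higher and 741 (3.77%) lower. In the fit, 687 of them had a line difference of the same direction at both phases that was larger at stationary phase, 228 had one that was smaller, and 580 had opposite directions at the phases. Without CHO-S library 1, 4990 genes (25.4%) were called. A1 exponential library 1 also stood apart. Of 48 genes that CHO-S expressed at 5 CPM or more at both phases and that had at most 3 counts over the A1 stationary libraries, 46 had a count in it, at a median of 1.85% of the CHO-S level, against 11 and 10 in the other A1 exponential libraries. The part of these reads in the interactions was not tested. Without that library 937 interactions were called, and without A1 stationary library 2, A1 stationary library 3 or CHO-S stationary library 2 there were 844, 970 and 875.

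The interactions described here were those with the highest and lowest values. Atf5 rose in A1 from 279, 267 and 299 CPM at exponential phase to 746, 897 and 784 CPM at stationary phase, and in CHO-S it went from 93.5, 110 and 101 CPM to 70.8, 46.2 and 47.2 CPM (interaction 2.47, SE 0.20, adjusted p = 1.9e-05 from edgeR). Cd36, a fatty acid and matrix receptor, went from 38.0 to 199 CPM in A1 and from 7.97 to 6.09 CPM in CHO-S (interaction 2.60, SE 0.33, adjusted p = 4.0e-04). For both, the gap between the lines was wider at stationary phase. Ctgf, a matricellular growth factor, was at 7.97 and 9.11 CPM in A1 and went from 148 to 20.6 CPM in CHO-S (interaction 2.90, SE 0.27, adjusted p = 3.7e-05), so the gap narrowed. Ranbp3l narrowed likewise, from 161 to 57.5 CPM in CHO-S and from 8.77 to 17.3 CPM in A1 (interaction 2.47, SE 0.22). Iyd, an iodide-salvaging enzyme, went from 12.1 to 39.3 CPM in A1 and was at 0.232 and 0.0692 CPM in CHO-S (interaction 2.93, SE 0.77, adjusted p = 0.032). Without CHO-S stationary library 2 this interaction was 2.57 and was not called (adjusted p = 0.20).

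The lowest interactions were those of genes that were higher in CHO-S than in A1 at stationary phase. Nppb, the brain natriuretic peptide gene, went from 27.2 to 244 CPM in CHO-S and was at 3.93 and 5.53 CPM in A1 (interaction -2.75, SE 0.45, adjusted p = 0.0022 from edgeR). Aqp1, a water channel, went from 45.5 to 143 CPM in CHO-S and from 75.3 to 31.5 CPM in A1 (interaction -3.01, SE 0.37, adjusted p = 3.5e-04), so the line that was higher changed. Btg2 did the same, with 16.3 to 43.5 CPM in CHO-S and 29.7 to 11.9 CPM in A1 (interaction -2.83, SE 0.30, adjusted p = 1.2e-04). Sema6d, a semaphorin, fell in A1 from 1.76 to 0.206 CPM and was at 34.3 and 45.4 CPM in CHO-S (interaction -3.43, SE 0.48, adjusted p = 8.3e-04). Trem1, a receptor of myeloid cells, went from 2.5 to 7.52 CPM in CHO-S and had 0.284, 0 and 0 CPM in A1 at stationary phase (interaction -4.21, SE 0.92, adjusted p = 0.013). Without A1 stationary library 2 it was -3.55 and was not called (adjusted p = 0.055).

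**Figure D4:**
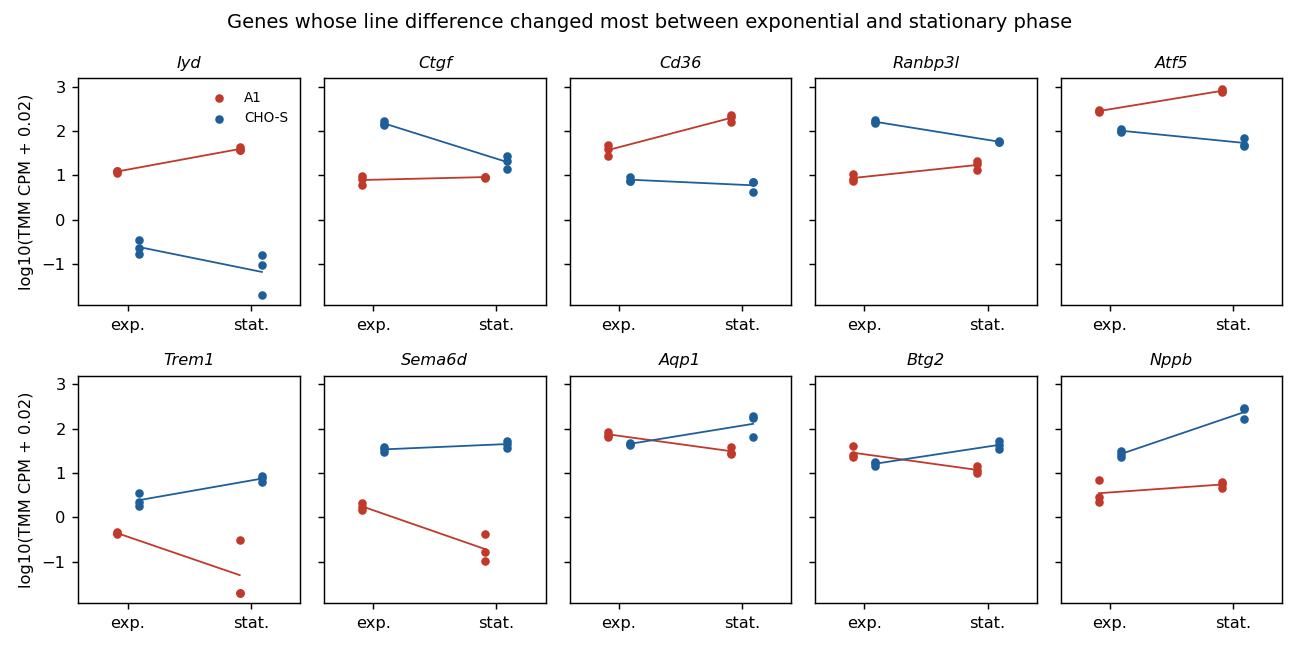
Levels of the 5 genes with the highest (top row) and the 5 with the lowest (bottom row) interaction of line and phase, as log10(TMM-normalized CPM + 0.02), at exponential and stationary phase. Points are libraries (3 for each line and phase) and lines join the means of the plotted values. The lines of A1 and CHO-S cross for Aqp1 and Btg2 and spread apart for Atf5 and Cd36.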

How the data were processed

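Messenger RNA of CHO cultures was sequenced from stranded libraries, and the authors aligned the reads with STAR (2.5.4b) to the Chinese hamster build C_griseus_v1.0 and counted them per gene with HTSeq (0.7.2). The deposited values are whole-number counts per gene for 28037 genes in 1 table of 24 libraries, and 5 summary lines that name no gene were left out of library sizes and tests. These hold reads outside genes, not aligned or not unique, and their shares are given with the results. The strand setting of the counting is not given in the sources used here, so overlapping and antisense genes are uncertain. Reads that align to more than 1 place were not counted, which lowers genes with close copies.

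Genes were kept with at least 1 count in at least 2 of the libraries fitted and with some variance, as the study's filter was read. The test was the quasi-likelihood F test (glmQLFit and glmQLFTest after TMM scaling) of edgeR 4.0.16 under R 4.3.3, two-sided, on 3 A1 and 3 CHO-S libraries with no block, and with Benjamini-Hochberg adjustment over all genes tested at 0.05. The interaction of line and phase was tested in the same way on 12 libraries. Levels are CPM on 1 TMM scale over 16 libraries. A fold against a group with no count is a lower bound against 3 counts over its 3 libraries together, and 95% intervals on a few counts cover counting error only. The alternatives used DESeq2 (1.42.0) and limma (3.58.1). The fitting step was tested on simulated data. Replicate numbers did not pair the libraries (correlations of same-numbered A1 and CHO-S deviations 0.08, 0.028 and 0.026).

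Genes were named by rule: the 15 largest rises and falls with a symbol, at least 5 CPM and no overlap, the genes of the study's questions, the 2 largest rises and falls of each list at 5 CPM or more, and the 5 highest and 5 lowest interactions. Every other gene named, apart from the cell type markers and the genes beside a locus, was chosen after its values were seen. The comparison and the lists were chosen with earlier results of these data known. Of 934 list genes, 863 matched the count table by symbol. Biotypes, names and the order of neighbours came from the RefSeq table of CriGri-PICRH-1.0, another build, so no coordinates are given. A few genes that the rule names are not reported here.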

Additional observations from a re-analysis of the deposited data

Results flagged for a closer look

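Interactions were looked up for the largest rises and falls, the genes of the study's questions and the extremes of the interaction test. With all 12 libraries, the difference between A1 and CHO-S changed with growth phase for 11 of those described here, by the interaction test of edgeR. All 11 were also called without CHO-S stationary library 1. More of the genes looked up were called without it, among them Hmox1 (-0.42), Nolc1 (0.37) and Ndc80 (0.42). So were several of the largest falls, such as Maged1 (-6.28) and Zfyve16 (-5.77), whose A1 exponential counts all lay in library 1. Interactions of the remaining genes described are not given, so their differences may also depend on phase. The change was higher at stationary phase for Iyd (2.93 on the log2 scale), Ctgf (2.90), Cd36 (2.60), Ranbp3l (2.47) and Atf5 (2.47). It was lower for Trem1 (-4.21), Sema6d (-3.43), Aqp1 (-3.01), Btg2 (-2.83) and Nppb (-2.75). These 10 were picked as the extremes of that test.

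Gapdh, which was not picked by it, changed as well. Its difference was -1.04 further from 0 at stationary phase (adjusted p = 4.8e-04 from edgeR), with 3223 CPM in exponential A1 and 5784 CPM in exponential CHO-S.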

How the results depend on the processing

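The count of 6345 genes was within 1.5 times under DESeq2 (5870), limma-voom (6007), RLE (6396) or upper-quartile (6397) factors, library sizes alone (6664), a stricter filter (5730), no filter (6220), a replicate block (4726), and fits of 10 (7150) or 12 (8541) libraries. It was 2734 with libraries thinned to the shallowest. Leaving out 1 library gave 4051 to 10451. Alternatives chosen after seeing the data gave 10515 with limma-voom and 9672 with the stricter filter, both without CHO-S library 1, 10911 with library quality weights, and 8643 with DESeq2 without CHO-S library 1. The interaction count of 1495 was 518 with a replicate block over the culture number, although numbers did not pair the libraries across phases, and 844 to 4990 with 1 stationary library left out (970 without A1 library 3, 875 without CHO-S library 2). It was 937 without A1 exponential library 1, an alternative also chosen after seeing the data.

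Of 819 values of 39 named genes under 21 alternatives, 800 kept direction and call, and 34 genes did so throughout. Most of the 39 were the largest rises and falls, picked from the main fit for their size and lack of overlap. That choice favoured stable genes, so the pooled count cannot show how stable smaller differences are. The genes that changed direction or call were Creb1, Hmox1, Jun, Nolc1 and Ndc80. All were genes of the study's questions and none was among the largest rises and falls. Creb1 turned to -0.23 with thinned libraries, -0.016 without CHO-S library 2 and -0.032 without CHO-S library 3, and was 0.52 without CHO-S library 1. Nolc1 turned to -0.037 with thinned libraries, -0.0049 without A1 library 2, -0.006 without CHO-S library 2 and -0.023 without CHO-S library 3, and was 0.14 without CHO-S library 1. Jun lost its call with thinned libraries (0.75), and the Iyd interaction (3.08) with the block. The cause was not tested. Leaving out a library other than CHO-S 1 gave fewer calls in 123 of 125 combinations of list and library, and the larger direction turned in 5, in the translocon list and the histone deacetylase list. Depth limits what CHO-S library 1 can show of genes with few counts.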
